A study of Mus musculus with 24 samples.

Results

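The 58 genes described here encode proteins of mitosis and cytokinesis, and they were followed across 24 liver libraries of C57BL/6 mice. They were chosen by symbol, as the rows of the deposited tables whose gene name equals a listed symbol, with repeated symbols summed. All 58 were found among 24339 genes, each at a single locus. The libraries form 8 groups of 3 replicates. At day 60 after birth these are hCAR-TG mice given CITCO, hCAR-TG mice given corn oil, wild type mice given TCPOBOP and wild type mice given corn oil, and the same 4 genotype and treatment pairs were sampled at day 5. hCAR-TG mice carry the human form of CAR, the constitutive androstane receptor, as a knock-in, and wild type mice have the mouse receptor. CITCO is an agonist of human CAR, TCPOBOP is an agonist of mouse CAR, and corn oil is the vehicle. Receptor and ligand always changed together, so their parts in a difference between the genotypes cannot be told apart. The labels give no dose, no interval between dosing and sampling, and no statement that replicates are separate animals, so a p-value here speaks of the spread among the sampled libraries, which may be technical.

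Mitosis begins when the kinase Cdk1, bound to cyclin A or cyclin B, phosphorylates its substrates, and it ends when the anaphase-promoting complex marks cyclin B and securin for destruction. In between, condensin compacts the chromosomes, kinetochores attach them to the spindle, the spindle checkpoint holds anaphase back until all are attached, and cytokinesis then cleaves the cell. Most of these genes are transcribed late in the cell cycle, under promoters bound by NF-Y, the DREAM complex, B-Myb and FoxM1. Newborn hepatocytes still divide, adult hepatocytes are mostly quiescent, and activation of mouse CAR by TCPOBOP is a classic way to make adult hepatocytes enter the cell cycle.

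Levels are FPKM, fragment counts scaled to transcript length and to the total mapped, as the authors deposited them. The median of the 58 group means was 0.378 FPKM in hCAR-TG liver with CITCO and 0.168 FPKM in hCAR-TG liver with corn oil at day 60, and 5.76 FPKM with CITCO and 5.47 FPKM with corn oil at day 5. In wild type liver it was 5.51 FPKM with TCPOBOP and 0.213 FPKM with corn oil at day 60, and 6.69 FPKM with TCPOBOP and 5.05 FPKM with corn oil at day 5. Group means under 1 FPKM were found for 47 members in hCAR-TG CITCO liver, 51 in hCAR-TG corn oil liver, 1 in wild type TCPOBOP liver and 51 in wild type corn oil liver at day 60, and for 0 members in each day 5 group. The adult wild type liver given TCPOBOP was thus the adult group with levels in the newborn range, as the heat map of all members shows. Fragments, estimated from the width of the deposited intervals, had a median of 40 per value in adult hCAR-TG CITCO liver, 15 in adult hCAR-TG corn oil liver, 508 in adult wild type TCPOBOP liver, 18 in adult wild type corn oil liver and 443 to 588 in the newborn groups. Adult corn oil levels of single members therefore rest on few fragments.

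**Figure D1:**
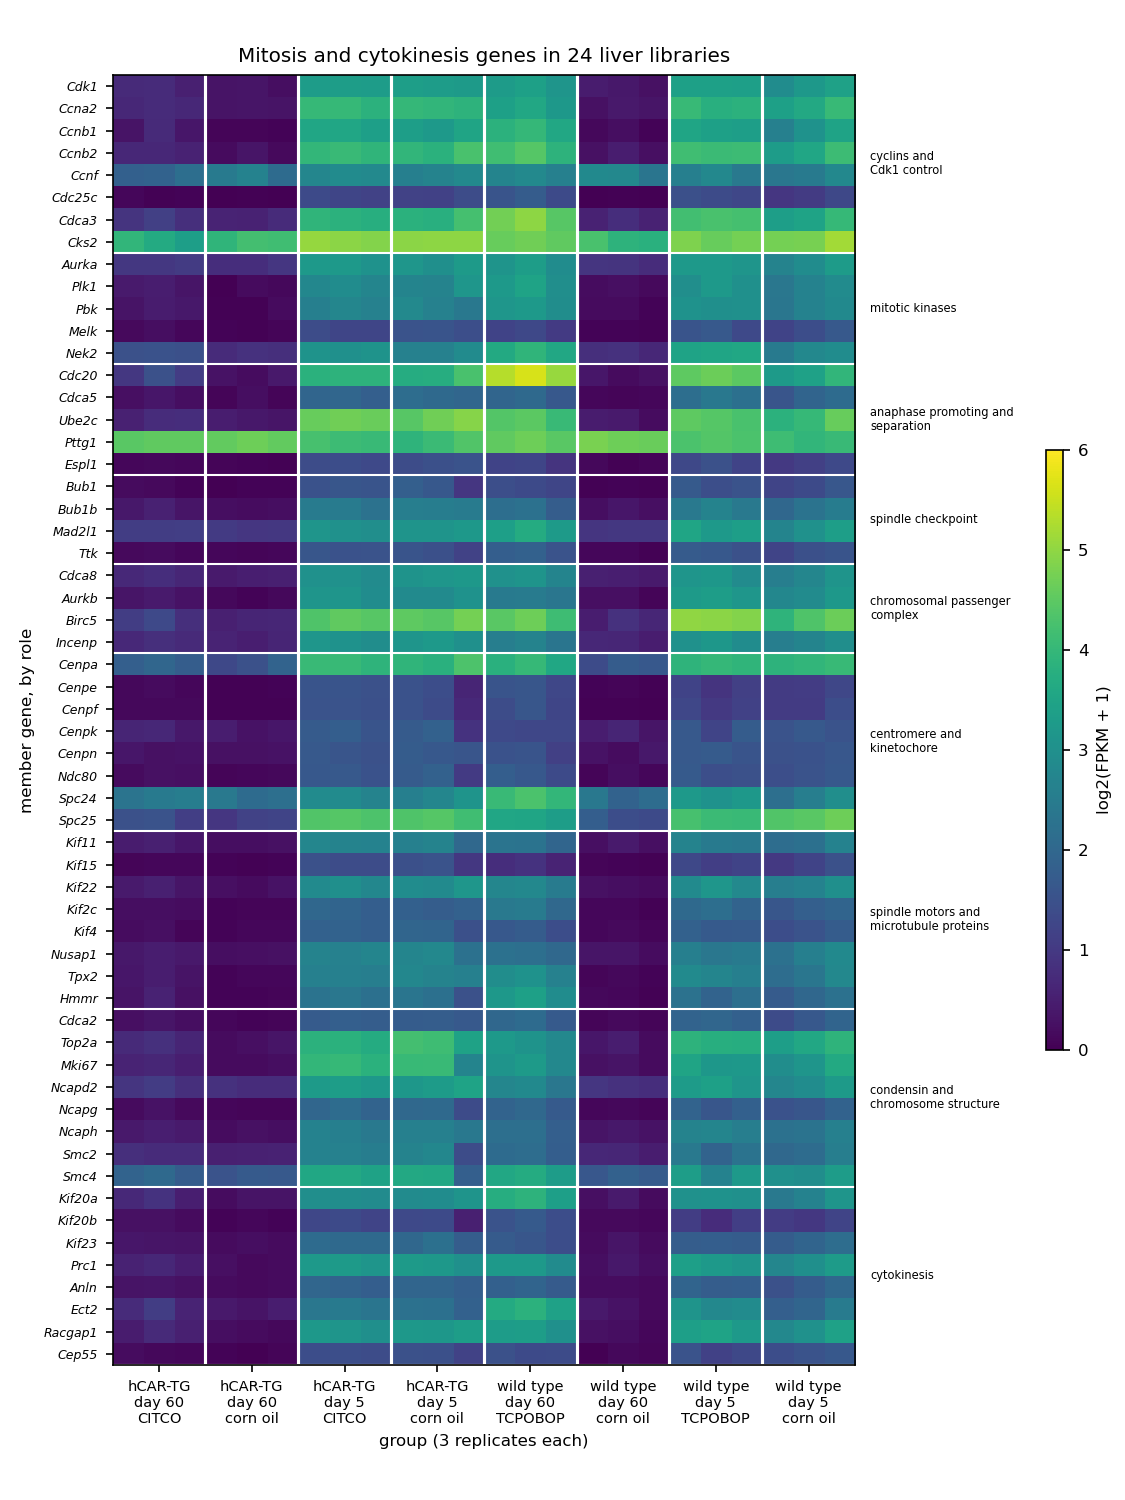
Level of each of the 58 genes (down, grouped by role) in each of the 24 libraries (across, 8 groups of 3 replicates) as log2(FPKM + 1), from dark (0) to bright (6). The 12 newborn libraries and the 3 adult wild type TCPOBOP libraries are the brighter ones in most rows, though members of low level, such as Cenpf and Kif15, are dim throughout. In the other 9 adult libraries most rows are dark, with Pttg1, Cks2, Ccnf and Spc24 as the clearest exceptions and Smc4, Cenpa and Spc25 as fainter ones.

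FPKM totals per library were 451546 to 502499, and total reads were not used here, so absolute depth is unknown. Hepatocyte markers summed to 25343 FPKM or more in every library, as the liver label says. Transcripts of pancreatic acinar cells summed to over 200 FPKM in 3 newborn libraries (hCAR-TG CITCO replicate 1, wild type TCPOBOP replicate 2 and wild type corn oil replicate 2). Newborn hCAR-TG corn oil replicate 3 stood apart over all tested genes, with an SD of its deviations from the group mean of 0.257 on the log2 scale, against 0.0967 to 0.178 in every other library. Members were unevenly affected there: Smc4, the ATPase core of condensin, had 11.2, 11.2 and 2.55 FPKM in the 3 replicates, while Cdc20 had 12.2, 12.3 and 18.3 FPKM. The newborn wild type corn oil libraries differed along the list as a whole, with 1, 14 and 57 of the 58 members above their group mean in replicates 1, 2 and 3. Among adult wild type TCPOBOP libraries, 0 members were above the group mean in replicate 3. That library also differs from replicates 1 and 2 in the number at the end of its read file name, whose meaning is not stated. A link was not tested.

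The promoters of members that represent the main responses are shown because late cell cycle promoters share short elements. RefSeq promoters (GRCm38.p6, from 250 bases before to 50 bases after the start) were matched for 48 members, which have 53 promoters in a table of 32851. Pbk, Incenp, Tpx2, Spc24, Kif20a, Cdca2, Cdc25c, Ccna2, Aurkb and Smc4 were not matched. The letters searched on both strands were CCAAT, the core of the NF-Y site, and TTTGAA, the core of the cell cycle genes homology region bound by DREAM and MuvB complexes. Each sequence runs 5′ to 3′ on its gene's strand, and capitals mark CCAAT or TTTGAA on either strand. The positions are chr10:69352863-69353162, minus strand for Cdk1, chr13:100786437-100786736, minus strand for Ccnb1, chr4:118437294-118437593, minus strand for Cdc20, chr7:122159185-122159484, plus strand for Plk1 and chr11:99024140-99024439, minus strand for Top2a. Birc5 (chr11:117848987-117849286, plus strand) holds neither element, and Ccnf (chr17:24251360-24251659, minus strand) is the member whose level differed least between adult wild type TCPOBOP and corn oil liver.
Cdk1: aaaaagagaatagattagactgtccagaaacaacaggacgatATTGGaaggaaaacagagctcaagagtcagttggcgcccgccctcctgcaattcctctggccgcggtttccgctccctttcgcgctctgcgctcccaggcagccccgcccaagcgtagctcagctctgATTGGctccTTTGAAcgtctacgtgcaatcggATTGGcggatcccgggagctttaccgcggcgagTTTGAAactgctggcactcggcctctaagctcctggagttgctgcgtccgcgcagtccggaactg
Ccnb1: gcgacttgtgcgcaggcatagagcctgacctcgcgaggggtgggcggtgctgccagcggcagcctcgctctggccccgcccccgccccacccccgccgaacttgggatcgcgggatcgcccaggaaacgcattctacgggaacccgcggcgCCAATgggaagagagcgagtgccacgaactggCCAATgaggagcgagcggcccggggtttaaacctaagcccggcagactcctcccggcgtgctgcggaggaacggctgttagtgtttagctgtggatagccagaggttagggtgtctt
Cdc20: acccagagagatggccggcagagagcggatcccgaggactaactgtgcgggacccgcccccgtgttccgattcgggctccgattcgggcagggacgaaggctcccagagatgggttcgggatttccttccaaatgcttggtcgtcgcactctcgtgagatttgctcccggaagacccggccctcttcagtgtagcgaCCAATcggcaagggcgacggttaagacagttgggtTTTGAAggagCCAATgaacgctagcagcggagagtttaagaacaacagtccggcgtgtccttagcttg
Plk1: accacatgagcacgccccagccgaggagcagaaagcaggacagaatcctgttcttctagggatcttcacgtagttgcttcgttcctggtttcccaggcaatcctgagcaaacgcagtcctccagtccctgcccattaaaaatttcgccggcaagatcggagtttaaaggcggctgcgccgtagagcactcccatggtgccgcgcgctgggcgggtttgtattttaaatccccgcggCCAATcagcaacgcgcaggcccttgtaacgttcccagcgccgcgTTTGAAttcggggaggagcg
Top2a: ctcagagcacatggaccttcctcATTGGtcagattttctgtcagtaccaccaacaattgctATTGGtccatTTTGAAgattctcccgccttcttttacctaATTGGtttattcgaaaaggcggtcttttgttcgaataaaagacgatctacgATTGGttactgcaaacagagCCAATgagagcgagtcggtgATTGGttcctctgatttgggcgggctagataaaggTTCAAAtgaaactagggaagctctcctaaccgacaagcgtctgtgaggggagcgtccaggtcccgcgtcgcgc
Birc5: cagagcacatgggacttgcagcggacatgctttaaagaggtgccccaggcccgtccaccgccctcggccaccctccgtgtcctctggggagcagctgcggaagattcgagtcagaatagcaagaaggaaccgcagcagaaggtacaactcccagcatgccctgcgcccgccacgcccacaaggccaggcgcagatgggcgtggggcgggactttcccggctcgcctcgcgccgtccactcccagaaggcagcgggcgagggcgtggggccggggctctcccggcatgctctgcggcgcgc
Ccnf: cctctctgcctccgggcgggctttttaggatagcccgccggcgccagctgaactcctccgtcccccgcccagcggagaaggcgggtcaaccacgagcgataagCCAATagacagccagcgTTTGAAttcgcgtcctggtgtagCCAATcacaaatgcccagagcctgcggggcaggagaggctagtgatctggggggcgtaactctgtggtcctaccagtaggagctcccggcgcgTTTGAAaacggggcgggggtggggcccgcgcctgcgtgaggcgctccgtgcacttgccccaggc
The Cdk1, Cdc20, Plk1 and Top2a windows hold both elements, the Ccnb1 window holds CCAAT only, and the Ccnf window holds both although its level hardly moved.

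Over the list, CCAAT was found in 73.6% of the member promoters and in 37.4% of all promoters in the table. TTTGAA was found in 73.6% of the member promoters and in 17.9% of all. Both elements stood in 58.5% of the member promoters and 6.95% of all, and neither in 11.3% and 51.65%. An E2F-type element, TTCCCGC, was found in 5.66% of the member promoters and in 4.60% of all. No match of CCAAT overlapped a match of TTTGAA in the 7 promoters shown. Of 52 matches of TTTGAA in member promoters, 75% began between 60 bases before and 50 bases after the start, against 28.2% of 6737 matches in all promoters. Members with a TTTGAA match had a median log2 change with TCPOBOP in adult wild type liver of 1.92 (36 genes), and those without one had 1.58 (12 genes); Birc5, with 3.75, is in the second set. A match is a description of letters in this window and was not tested as a binding site.

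**Figure D2:**
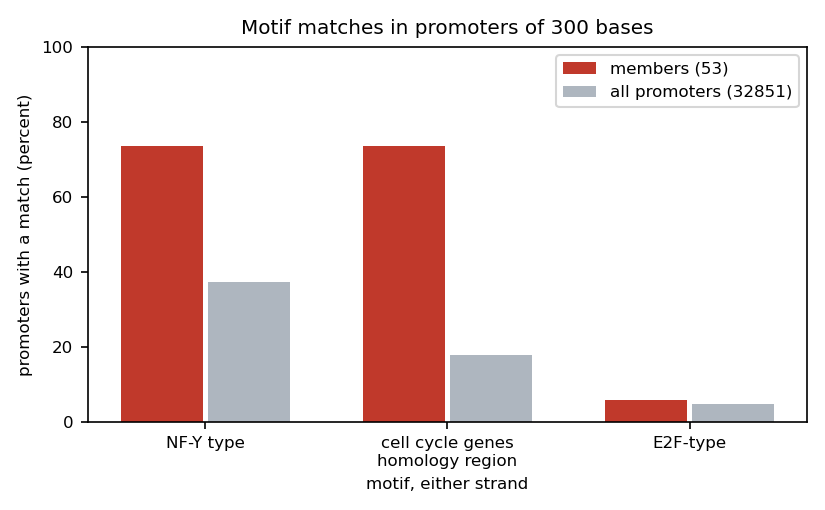
Percent of promoters of 300 bases (bars) with a match on either strand to the NF-Y element CCAAT, the cell cycle genes homology element TTTGAA and the E2F-type element TTCCCGC, for 53 member promoters (red) and all 32851 promoters of the table (grey). The red bar is 73.6% for the first 2 elements and 5.66% for the E2F-type element, beside grey bars of 37.4%, 17.9% and 4.60%.

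In adult wild type liver, 56 of the 58 genes rose with TCPOBOP (limma on log2(FPKM + 1), Benjamini-Hochberg adjustment over 12282 genes, called at an adjusted p under 0.05). Of all tested genes, 31.4% were called higher and 15.8% lower, so that 66.5% of all calls were higher, a share of 53.0% after rescaling by median of ratios. The 56 members were called after rescaling too, and Pttg1 was then called lower. The median log2 change was 1.91 over the members and 0.06 over all tested genes. All 3 TCPOBOP libraries lay above all 3 corn oil libraries for those 56 members, which 37.7% of all tested genes also did; 0 members lay wholly below, as 22.3% of all tested genes did. The exceptions were Ccnf, an F-box protein gene, and Pttg1, the gene of securin. Each member reached 1 FPKM in at least 9 newborn libraries and so passed the expression filter (1 FPKM in 3 of the 24 libraries) whatever its adult level, and 50 of them did not reach 1 FPKM in any of the 6 adult corn oil libraries. On the FPKM scale the median ratio of TCPOBOP to corn oil group means was 29.7, and it was over 2 for 55 members. The pseudocount of 1 makes log2 changes smaller than these ratios, because corn oil levels lie far under 1, and it lowers the rank of the members with the lowest corn oil levels. Orders of members here and in the other comparisons are therefore those on log2(FPKM + 1), and ratios of group means can order them otherwise. In bulk RNA, more cells in mitosis and more mRNA in each of them cannot be told apart. Among libraries with the same number at the end of the read file name, whose meaning the labels do not state, the median change was 2.01 and 57 members were higher (2 TCPOBOP libraries against 3 with corn oil).

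Among the cyclins and the genes that control Cdk1, 7 of 8 rose. Cdk1 (chr10:69336635-69352912 in mm10), the kinase that drives entry into mitosis, had 8.79, 9.56 and 7.72 FPKM in TCPOBOP liver, against 0.364, 0.298 and 0.196 FPKM in corn oil liver. Every TCPOBOP library was above every corn oil library, by a log2 change of 2.91 ± 0.10 (SE; limma adjusted p = 1.05e-15). Ccnb1 (chr13:100778739-100786486), the cyclin B1 gene, had 13.4, 14.9 and 11.0 FPKM with TCPOBOP, against 0.0862, 0.159 and 0.0446 FPKM with corn oil. Here too the groups did not overlap, and the log2 change was 3.68 ± 0.15 (limma adjusted p = 4.6e-14). The largest change of the group on log2(FPKM + 1) was in Cdca3, the trigger of mitotic entry protein that helps destroy the Cdk1 inhibitor Wee1, with 25.3, 30.7 and 20.6 FPKM in TCPOBOP liver, against 0.479, 0.720 and 0.487 FPKM in corn oil liver. The TCPOBOP libraries were all higher, by 4.07 ± 0.15 (limma adjusted p = 9.59e-15). As a ratio of group means, Ccnb1 (136) changed more than Cdca3 (45.4). Ccnb2 (3.82), the cyclin A2 gene Ccna2 (3.07), the Cdk1-activating phosphatase gene Cdc25c (1.54) and the Cdk1-binding Cks2 (0.62) rose as well. Ccnf (chr17:24223232-24251409), the substrate receptor of an SCF ubiquitin ligase, had 5.56, 6.07 and 5.16 FPKM with TCPOBOP and 6.21, 5.91 and 4.05 FPKM with corn oil. Its groups overlapped, the log2 change was 0.06 ± 0.15 and the limma adjusted p was 0.777.

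All 5 mitotic kinases rose. Plk1 (chr7:122159437-122169875), the Polo-like kinase of spindle assembly and mitotic exit, had 8.37, 10.2 and 6.80 FPKM in TCPOBOP liver, against 0.143, 0.179 and 0.106 FPKM in corn oil liver. No library overlapped between the groups, and the log2 change was 3.03 ± 0.13 (limma adjusted p = 1.23e-13). The smallest rise on that scale was that of Melk, a kinase gene of proliferating cells (1.13), and Aurka, the kinase of the spindle poles (2.26), Nek2, the kinase of centrosome separation (2.95), and Pbk (2.96) lay between it and Plk1. The ratios of group means gave another order, with 74.7 for Pbk, 59.2 for Plk1, 35.0 for Melk, 17.2 for Nek2 and 9.51 for Aurka.

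Of the genes of anaphase onset, 4 of 5 rose and 1 did not pass. Cdc20 (chr4:118432901-118437343), the activator of the anaphase-promoting complex, changed most of all 58 members on log2(FPKM + 1), with 39.1, 48.7 and 32.7 FPKM in TCPOBOP liver, against 0.294, 0.121 and 0.207 FPKM in corn oil liver. The ratio of the group means was 194, on corn oil values of about 17, 7 and 13 fragments. Cdc25c would exceed that ratio, but its corn oil values rest on about 0, 2 and 0 fragments. The log2 change was 5.08 ± 0.17 (limma adjusted p = 3.29e-15), and the groups were far apart. Ube2c, the ubiquitin-conjugating enzyme that works with that complex, had 20.0, 21.5 and 15.8 FPKM with TCPOBOP, against 0.378, 0.353 and 0.155 FPKM with corn oil. All TCPOBOP libraries were higher, by 3.95 ± 0.15 (limma adjusted p = 1.48e-14). Cdca5, the gene of sororin, which protects cohesion (1.79), and Espl1, the gene of separase, which cuts cohesin (1.04), rose less. Pttg1 (chr11:43420248-43426248), whose product securin inhibits separase, had 22.0, 24.6 and 21.1 FPKM in TCPOBOP liver and 26.7, 24.5 and 23.6 FPKM in corn oil liver. The groups overlapped, and the log2 change of -0.14 ± 0.09 was not called (limma adjusted p = 0.213). The securin gene was thus abundant in adult liver with either treatment, while the gene of its protein partner separase was near 0 with corn oil (Espl1, 0.0903, 0.0263 and 0.0521 FPKM).

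The 4 genes of the spindle checkpoint and the 4 of the chromosomal passenger complex all rose. Bub1b (chr2:118598211-118641592), the BubR1 checkpoint gene, had 3.52, 3.71 and 2.42 FPKM with TCPOBOP, against 0.159, 0.292 and 0.192 FPKM with corn oil. The groups did not overlap (log2 change 1.78 ± 0.12, limma adjusted p = 9.59e-11). Within the checkpoint, Mad2l1, which holds Cdc20 inactive, changed by 2.50, the kinase gene Ttk by 1.65 and the kinetochore kinase gene Bub1 by 1.31. This order is set by the scale, since the ratios of group means were 10.7 for Mad2l1, 42.1 for Ttk and 52.2 for Bub1. Aurkb (chr11:69045643-69051662), the kinase of the passenger complex, had 4.59, 4.63 and 4.09 FPKM in TCPOBOP liver, against 0.192, 0.191 and 0.0668 FPKM in corn oil liver. Birc5 (chr11:117849237-117855743), the gene of survivin, which brings the complex to centromeres, had 21.0, 24.4 and 16.6 FPKM with TCPOBOP, against 0.404, 0.815 and 0.564 FPKM with corn oil. Both genes were higher in every TCPOBOP library, Aurkb by 2.24 ± 0.09 and Birc5 by 3.75 ± 0.16, so that Birc5 led the complex and the scaffold gene Incenp (1.93) changed least. Cdca8, the borealin gene, changed by 2.46.

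All 8 centromere and kinetochore genes rose. Cenpa (chr5:30666886-30674837), the histone H3 variant that marks centromeres, had 12.9, 15.3 and 10.9 FPKM in TCPOBOP liver, against 1.60, 2.34 and 2.12 FPKM in corn oil liver. It was thus already above 1 FPKM in adult liver without ligand, and it rose by 2.21 ± 0.14 (limma adjusted p = 5.43e-11). That was the largest log2(FPKM + 1) change of the group, but its ratio of group means (6.45) was far under those of Cenpf (81.5) and Cenpe (41.8), whose corn oil levels were under 0.1 FPKM. Ndc80 (chr17:71496100-71526857), the microtubule-binding subunit of the complex of that name, had 2.44, 2.14 and 1.55 FPKM with TCPOBOP, against 0.0520, 0.168 and 0.0824 FPKM with corn oil. Its groups did not overlap (log2 change 1.46 ± 0.15). The same complex has Spc24 (1.98) and Spc25 (1.96) as subunits, both also above 1 FPKM in adult corn oil liver, where Spc24 had 4.30, 2.71 and 3.32 FPKM and Spc25 had 2.44, 1.65 and 1.53 FPKM. The smallest change, also as a ratio, was in Cenpk, a subunit of the inner kinetochore (0.82), and Cenpn, another inner subunit (1.10), the large outer protein gene Cenpf (1.39) and the motor gene Cenpe (1.42) lay between.

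The 8 spindle motor and microtubule genes rose together. Kif11 (chr19:37376403-37421859), the Eg5 motor that separates spindle poles, had 3.96, 3.89 and 2.91 FPKM in TCPOBOP liver, against 0.194, 0.350 and 0.186 FPKM in corn oil liver. All TCPOBOP libraries were higher, by 1.88 ± 0.14 (limma adjusted p = 9.03e-10). Hmmr, a spindle assembly factor, rose most (3.09), also as a ratio of group means (129). Kif15, a motor that can stand in for Kif11, changed least on log2(FPKM + 1) (0.69); Tpx2, the activator of Aurka, changed by 2.78, Kif22 by 2.46, Kif2c by 2.23, Nusap1 by 1.86 and Kif4 by 1.49. The 8 genes of condensin and chromosome structure also rose. Top2a (chr11:98992947-99024189), the topoisomerase that untangles sister DNA, had 8.28, 7.45 and 5.96 FPKM with TCPOBOP, against 0.278, 0.385 and 0.138 FPKM with corn oil. Mki67 (chr7:135689788-135716379), the gene of the proliferation marker Ki-67, which coats mitotic chromosomes, had 7.61, 8.72 and 5.96 FPKM with TCPOBOP, against 0.207, 0.247 and 0.131 FPKM with corn oil. Neither gene overlapped between the groups, and their log2 changes were 2.69 ± 0.16 and 2.81 ± 0.25. Ncapg (chr5:45669925-45700547), a subunit of condensin I, had 2.73, 3.08 and 2.25 FPKM in TCPOBOP liver, against 0.0693, 0.0965 and 0.0571 FPKM in corn oil liver. Its log2 change was 1.77 ± 0.14, beside 1.80 for Ncapd2 and 1.74 for Ncaph, the other condensin I subunits, and 1.80 for Smc4 and 1.41 for Smc2, the shared core genes. The ratios of group means were far apart, with 36.2 for Ncapg, 12.5 for Ncaph, 6.59 for Ncapd2, 5.90 for Smc2 and 4.57 for Smc4. The phosphatase-targeting gene Cdca2 changed by 1.82.

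Cytokinesis genes rose in 8 of 8 cases. Prc1 (chr7:80294451-80316259), which bundles the antiparallel microtubules of the central spindle, had 8.42, 8.34 and 6.43 FPKM in TCPOBOP liver, against 0.167, 0.299 and 0.172 FPKM in corn oil liver. Ect2 (chr3:27097222-27153878), the exchange factor that switches on RhoA at the cleavage site, had 11.7, 13.5 and 9.85 FPKM with TCPOBOP, against 0.337, 0.216 and 0.113 FPKM with corn oil. Anln (chr9:22331214-22389206), the anillin gene of the contractile ring, had 2.60, 2.80 and 2.31 FPKM with TCPOBOP, against 0.141, 0.153 and 0.119 FPKM with corn oil. In all 3 genes the lowest TCPOBOP library was above the highest corn oil library, with log2 changes of 2.84 ± 0.12, 3.37 ± 0.15 and 1.65 ± 0.09 (limma adjusted p = 3.08e-14, 2.52e-13 and 5.3e-12). The largest change on log2(FPKM + 1) was in Kif20a (3.38), the motor that carries the passenger complex to the central spindle, and the smallest in Cep55 (1.32), which recruits the abscission machinery. Racgap1 (3.02) and Kif23 (1.35), the 2 partners of the centralspindlin complex, differed in the size of their change, also as ratios of group means (56.3 for Racgap1, the largest of the group, and 11.2 for Kif23, the smallest), and Kif20b changed by 1.41. Exons of Ccna2, Cdc20, Kif20a, Kif4, Ncapg, Nusap1, Prc1 and Ube2c overlap exons of a gene on the opposite strand, and whether the counting used strand was not given in the sources used here, so reads of these 8 members and of their neighbours may be mixed.

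**Figure D3:**
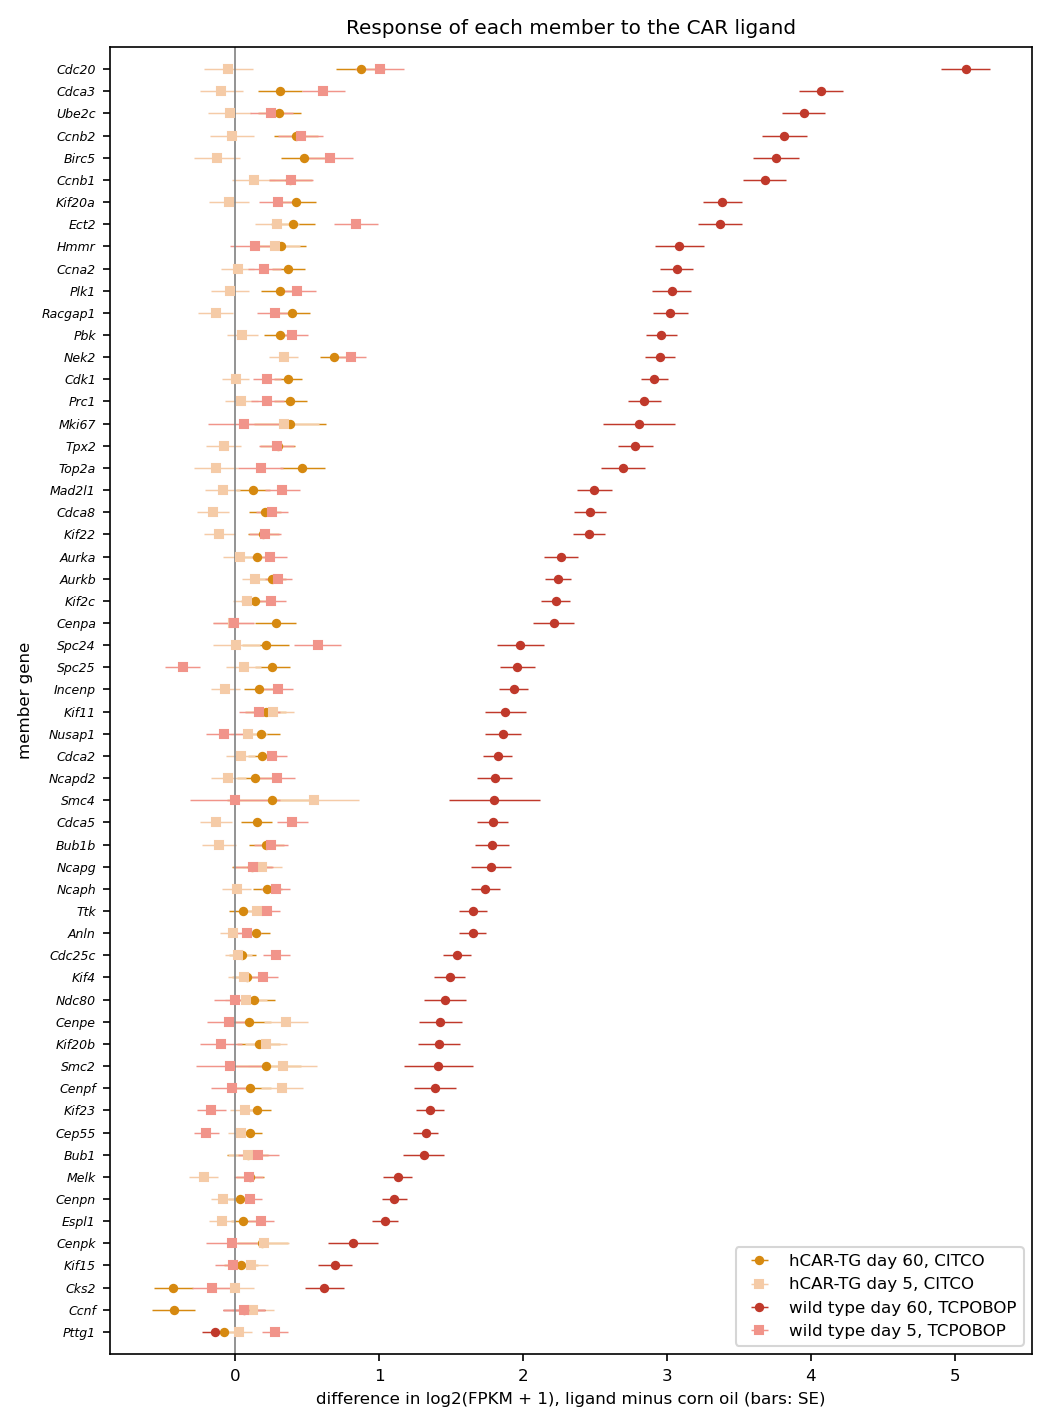
Difference in log2(FPKM + 1) between ligand and corn oil (x axis; point, limma estimate; bar, SE) for each member (y axis, ordered by the TCPOBOP response at day 60), in hCAR-TG mice given CITCO (orange, day 60; pale orange, day 5) and wild type mice given TCPOBOP (red, day 60; pale red, day 5). The red day 60 points run from -0.14 for Pttg1 to 5.08 for Cdc20, and the other 3 responses lie between -0.43 and 1.0.

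Among lists of related genes, the other mitotic genes moved the same way in this comparison, and the further lists did so only in part. The shares over all tested genes were 31.4% higher and 15.8% lower. Of 54 tested mitotic genes outside the 58, 53 rose, among them the spindle genes Ckap2 (2.81 ± 0.13), Ckap2l (2.82 ± 0.13), Spag5 (1.58 ± 0.07) and Kifc1 (2.34 ± 0.11), and 0 fell. Hjurp, the chaperone that loads Cenpa, was the exception (-0.14 ± 0.08). The lists were chosen with earlier results of these data known. The adult TCPOBOP libraries alone can also pass a gene through the expression filter. The count of 53 is therefore no separate support for the rise of the members. Of 24 tested regulators of late cell cycle transcription, 14 rose and 3 fell. Foxm1, an activator of G2 and M genes (2.29 ± 0.10), the E2F genes E2f2 (1.84 ± 0.15) and E2f1 (1.33 ± 0.11) and the pocket protein gene Rbl1 (1.02 ± 0.13) were higher. Those that fell, named after their values were seen, were the DREAM genes Rbbp4 (-0.52 ± 0.07) and Rbl2 (-0.34 ± 0.08) and the E2F partner gene Tfdp2 (-0.27 ± 0.09). Mybl2, the B-Myb gene, did not pass (0.21 ± 0.11). Of 15 core genes of the anaphase-promoting complex, 9 rose and 0 fell, for example Anapc15 (0.69 ± 0.07) and Anapc4 (0.69 ± 0.07). Of 12 cohesin and condensin II genes, 5 rose and 0 fell, for example Ncaph2 (0.95 ± 0.08) and Ncapg2 (1.37 ± 0.18).

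Cell type markers were also followed in adult wild type liver, where 31.4% of all tested genes were called higher and 15.8% lower. Calls of erythroid, neutrophil and myeloid, lymphocyte and Kupffer cell markers were near or under these shares. Hepatocyte markers fell in 8 of 10 cases and summed to 25343 to 27969 FPKM with TCPOBOP, against 44956 to 54523 FPKM with corn oil. Erythroid markers fell in 2 of 16 cases (27.3 to 41.3 FPKM in sum, against 38.0 to 58.8 FPKM, with Rhag listed at 0 in all 6 libraries), neutrophil and myeloid markers rose in 1 and fell in 1 of 12 (9.0 to 14.6 FPKM, against 8.27 to 11.7 FPKM, with Ctsg listed at 0 in all 6), and lymphocyte markers were called in 0 of 6 tested. Kupffer cell markers rose in 1 and fell in 2 of 10 (234 to 256 FPKM, against 245 to 279 FPKM), endothelial markers rose in 3 and fell in 4 of 10, stellate markers rose in 2 and fell in 4 of 10, and cholangiocyte markers rose in 3 of 7 (63.4 to 84.0 FPKM, against 33.6 to 41.1 FPKM). The part of any such shift in the rise of the mitotic genes was not tested.

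In adult hCAR-TG liver, CITCO gave a small shift of the same list. Called higher were 5 of the 58 genes, against 4.40% of all tested genes, and 0 were called lower, against 3.97%. The 5 were Cdk1, Cdc20, Nek2, Prc1 and Racgap1. All 5 are among the 56 that rose with TCPOBOP, but with 56 of 58 raised there, nearly any 5 members would be. For 48 members every CITCO library lay above every corn oil library, a pattern found in 15.9% of all tested genes, and for 1 member, Pttg1, every CITCO library lay below (16.1% of all tested genes). The median log2 change was 0.20 over the members and 0.00 over all tested genes, the median ratio of group means was 2.21, and 34 members were over 2. The call rate depended on the scale: with a pseudocount of 0.1 in place of 1, 31 members were called higher and Cks2 lower, and after rescaling by median of ratios 8 were higher and Cks2 lower. With 1 library left out at a time, 2 to 5 were called higher and 0 or 1 lower; it was 3 without corn oil replicate 1 or 2, and 2 without corn oil replicate 3, CITCO replicate 1 or CITCO replicate 2. With the closing number of the read file name as a factor 1 was called, Nek2; among libraries with the same number (1 CITCO library against 3 with corn oil) 55 members were higher, with a median change of 0.18.

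The Cdk1 gene had 0.639, 0.658 and 0.449 FPKM in CITCO liver, against 0.238, 0.265 and 0.176 FPKM in corn oil liver. The groups did not overlap, and the log2 change was 0.37 ± 0.10 (limma adjusted p = 0.0185). Cdc20 had 0.956, 1.80 and 1.08 FPKM with CITCO, against 0.223, 0.157 and 0.320 FPKM with corn oil. CITCO replicate 2 was the highest of the 6, and the change was 0.87 ± 0.17 (limma adjusted p = 0.0025), the largest of the list on log2(FPKM + 1). Its ratio of group means was 5.49, under those of Hmmr (6.17) and Ccnb1 (6.81). Nek2 had 1.79, 1.86 and 1.75 FPKM with CITCO, against 0.663, 0.812 and 0.745 FPKM with corn oil. The 3 CITCO values lay close together and above all corn oil values (0.69 ± 0.10, limma adjusted p = 0.000171). Of the cytokinesis genes, Prc1 had 0.50, 0.582 and 0.394 FPKM in CITCO liver and 0.180, 0.116 and 0.136 FPKM in corn oil liver. Racgap1 had 0.384, 0.642 and 0.437 FPKM in CITCO liver and 0.161, 0.135 and 0.0897 FPKM in corn oil liver. Both separated the groups completely, by 0.38 ± 0.12 and 0.39 ± 0.12 (limma adjusted p = 0.0442 and 0.0475).

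Members that were not called often showed the same order of libraries. Birc5 had 1.14, 1.49 and 0.741 FPKM with CITCO, against 0.437, 0.528 and 0.575 FPKM with corn oil, and its log2 change of 0.48 ± 0.16 had a limma adjusted p of 0.0755. Ccnb1 had 0.247, 0.635 and 0.282 FPKM with CITCO, against 0.0648, 0.0642 and 0.0419 FPKM with corn oil (ratio of means 6.81, limma adjusted p = 0.136). Plk1 had 0.348, 0.390 and 0.274 FPKM with CITCO, against 0.0137, 0.136 and 0.0885 FPKM with corn oil. In these 3 genes no CITCO library overlapped the corn oil libraries, at levels where a corn oil value rests on few fragments (5, 6 and 4 for Ccnb1). Top2a had 0.630, 0.774 and 0.543 FPKM in CITCO liver, against 0.138, 0.187 and 0.260 FPKM in corn oil liver. Mki67 had 0.505, 0.555 and 0.419 FPKM in CITCO liver, against 0.137, 0.135 and 0.171 FPKM in corn oil liver. Both were higher in every CITCO library, by 0.46 ± 0.16 and 0.38 ± 0.25, and neither was called (limma adjusted p = 0.074 and 0.439).

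The same held for Aurkb, with 0.269, 0.341 and 0.234 FPKM in CITCO liver and 0.0932, 0.0386 and 0.0880 FPKM in corn oil liver, and for Bub1b, with 0.310, 0.461 and 0.266 FPKM in CITCO liver and 0.159, 0.145 and 0.168 FPKM in corn oil liver. Kif11 had 0.375, 0.437 and 0.290 FPKM with CITCO and 0.168, 0.168 and 0.209 FPKM with corn oil, and Ect2 had 0.662, 1.12 and 0.505 FPKM with CITCO and 0.324, 0.241 and 0.397 FPKM with corn oil. None of these 4 overlapped between the groups. Ndc80 had 0.124, 0.208 and 0.195 FPKM with CITCO and 0.0547, 0.0792 and 0.0886 FPKM with corn oil, Ncapg had 0.137, 0.218 and 0.111 FPKM with CITCO and 0.0695, 0.0628 and 0.0653 FPKM with corn oil, and Anln had 0.236, 0.272 and 0.208 FPKM with CITCO and 0.122, 0.109 and 0.125 FPKM with corn oil. These 3 did not overlap either, and all lay under 0.3 FPKM. Cenpa was an exception, with 2.50, 2.92 and 2.39 FPKM in CITCO liver and 1.47, 1.80 and 2.76 FPKM in corn oil liver: corn oil replicate 3 lay above 2 of the CITCO libraries. The smallest log2(FPKM + 1) changes were in Kif15 (0.0543, 0.0738 and 0.0699 FPKM with CITCO, 0.0480, 0.0247 and 0.0437 FPKM with corn oil) and Cenpn (0.285, 0.199 and 0.233 FPKM with CITCO, 0.208, 0.201 and 0.225 FPKM with corn oil), at 0.04 and 0.03. Negative estimates were found for Ccnf (-0.43 ± 0.15), Cks2 (-0.43 ± 0.14) and Pttg1 (-0.08 ± 0.09), and none was called.

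Of the other mitotic genes, 3 of 54 rose with CITCO in adult hCAR-TG liver and 0 fell: Zwint (0.29 ± 0.06), a kinetochore gene, Stmn1 (0.68 ± 0.16), a microtubule destabiliser, and Esco2 (0.60 ± 0.18), a cohesin acetyltransferase. Of the 24 regulators 0 rose and 1 fell, Cdkn1a, the gene of the Cdk inhibitor p21 (-1.29 ± 0.30), which in wild type adults rose with TCPOBOP (1.40 ± 0.30). Foxm1 did not pass (0.18 ± 0.10). Erythroid, neutrophil, endothelial and lymphocyte markers were called in 0 cases, hepatocyte markers rose in 1 and fell in 3 of 10 (42134 to 48277 FPKM in sum with CITCO, against 50204 to 58080 FPKM with corn oil), Kupffer cell markers rose in 1 of 10, and stellate markers fell in 4 of 10 (119 to 137 FPKM, against 149 to 203 FPKM). The part of these shifts in the members' levels was not tested.

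**Figure D4:**
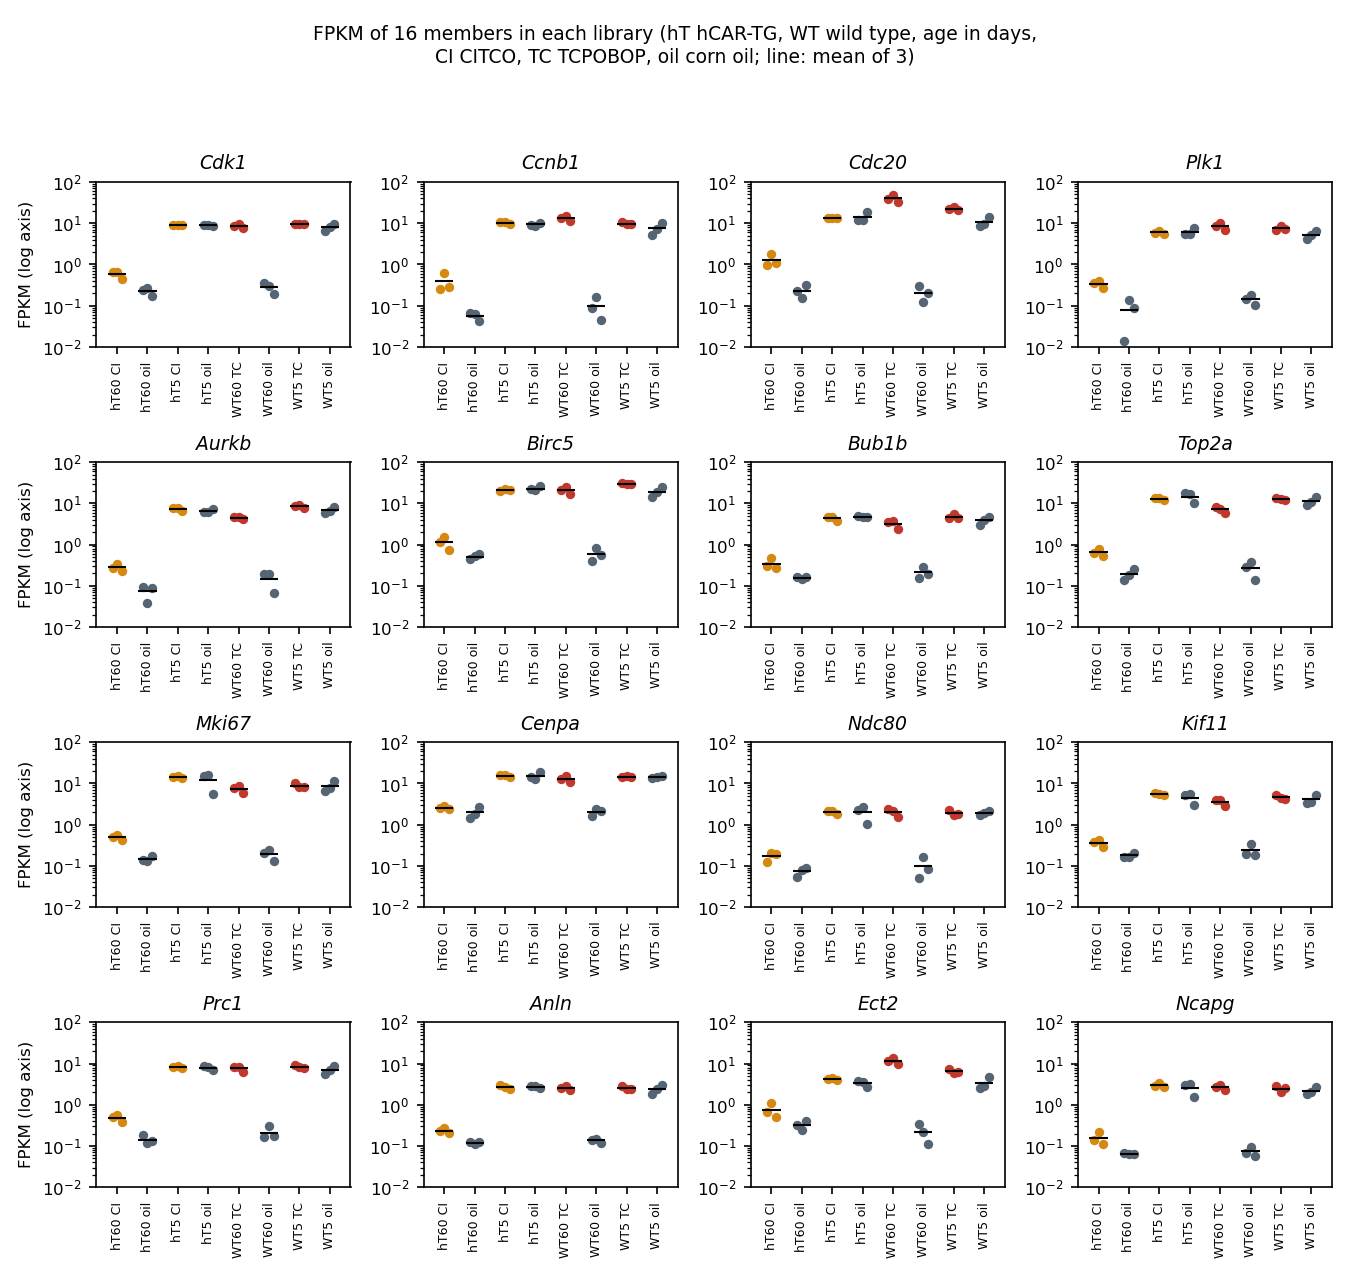
FPKM (y axis, log scale, the same in every panel) of 16 members in each library (points) of the 8 groups (x axis; hT, hCAR-TG; WT, wild type; age in days; CI, CITCO; TC, TCPOBOP; oil, corn oil), with the mean of 3 as a line. Adult wild type TCPOBOP points lie near the newborn ones, adult corn oil points far lower, and adult hCAR-TG CITCO points mostly in between but nearer to corn oil. For Cdc20 (32.7 to 48.7 FPKM), Ect2 and Ccnb1 the adult TCPOBOP values are the highest of the panel. For Aurkb and Top2a they lie below every newborn value.

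Set side by side at day 60, the response of hCAR-TG mice to CITCO was smaller than that of wild type mice to TCPOBOP in 55 of 58 members by the limma test of the difference between the responses, and larger in 0. Of all tested genes, 24.1% were called lower and 9.77% higher, so that 28.9% of all calls were higher, a share of 43.3% after rescaling. The median difference was -1.69 over the members and -0.07 over all tested genes. The largest differences on log2(FPKM + 1) were in Cdc20 (-4.20 ± 0.24), Cdca3 (-3.76 ± 0.21) and Ube2c (-3.65 ± 0.21). Cdca3 had 0.883, 1.19 and 0.741 FPKM with CITCO and 0.504, 0.488 and 0.680 FPKM with corn oil in hCAR-TG liver, where Ube2c had 0.467, 0.698 and 0.734 FPKM with CITCO and 0.396, 0.302 and 0.263 FPKM with corn oil. Both were higher in each CITCO library than in any hCAR-TG corn oil library, yet far under the wild type TCPOBOP values given above. No call was made for Cenpk (-0.63 ± 0.25), Ccnf (-0.49 ± 0.21) and Pttg1 (0.06 ± 0.13). The median over the members of each gene's group mean in hCAR-TG CITCO liver, as a percent of that in wild type TCPOBOP liver, was 7.13%. Receptor, ligand and any difference in dose cannot be told apart in this contrast.

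In newborn wild type liver, 16 of the 58 genes rose with TCPOBOP and 1 fell, where 24.6% of all tested genes were called higher and 11.3% lower, so the share of members called higher was near that of all genes. The median log2 change was 0.22 over the members and 0.04 over all tested genes. For 10 members every TCPOBOP library lay above every corn oil library, as for 30.0% of all tested genes, and for 1 member, Spc25, below (17.5%). Cdc20 had 21.9, 24.2 and 21.5 FPKM with TCPOBOP, against 8.72, 9.75 and 14.5 FPKM with corn oil. Ect2 had 7.57, 5.93 and 6.42 FPKM with TCPOBOP, against 2.54, 2.87 and 4.63 FPKM with corn oil. Nek2 had 10.2, 10.5 and 10.8 FPKM with TCPOBOP, against 4.43, 5.95 and 6.60 FPKM with corn oil. In these 3 genes, those with the largest changes, the groups did not overlap, and the log2 changes were 1.0 ± 0.17, 0.84 ± 0.15 and 0.80 ± 0.10 (limma adjusted p = 0.000105, 0.000213 and 2.74e-06). Spc25 was the member called lower, with 18.1, 16.1 and 15.8 FPKM in TCPOBOP liver, against 19.7, 21.1 and 24.6 FPKM in corn oil liver (-0.37 ± 0.12, limma adjusted p = 0.0221). Its complex partner Spc24 rose, with 8.27, 7.31 and 8.14 FPKM in TCPOBOP liver, against 3.60, 4.96 and 6.80 FPKM in corn oil liver (0.57 ± 0.16). Neither gene overlapped between the groups, and these 2 subunits of the Ndc80 complex were called in opposite directions. The call for Spc25 was lost with a pseudocount of 0.1 and without the libraries with acinar transcripts. The subunit gene Ndc80 was not called.

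Further newborn rises were in Birc5, with 31.1, 30.3 and 28.7 FPKM in TCPOBOP liver, against 13.9, 19.3 and 24.3 FPKM in corn oil liver, in Cdca3 (0.61 ± 0.15), Ccnb2 (0.45 ± 0.15), Plk1 (0.43 ± 0.13), Cdca5 (0.39 ± 0.11), Pbk (0.39 ± 0.11), Mad2l1 (0.33 ± 0.12), Aurkb (0.30 ± 0.09), Incenp (0.30 ± 0.10), Ncaph (0.28 ± 0.10), Cdc25c (0.28 ± 0.09) and Pttg1 (0.27 ± 0.09). By role these were 3 of 8 genes of Cdk1 control, 3 of 5 kinases, 3 of 5 of anaphase onset, 1 of 4 of the checkpoint, 3 of 4 of the passenger complex, 1 of 8 each of kinetochores, chromosome structure and cytokinesis, and 0 of 8 spindle motors. Pttg1 had 18.7, 19.9 and 18.6 FPKM with TCPOBOP and 16.5, 14.5 and 15.8 FPKM with corn oil. It is the 1 gene of these 16 not raised at day 60 (15 of the 16, and 15 of the 56 raised at day 60, were called at both ages). With 56 of the 58 raised at day 60, an overlap of this size says little about the 16. Cdk1 had 9.58, 9.62 and 9.40 FPKM with TCPOBOP and 6.51, 8.14 and 9.77 FPKM with corn oil, overlapping groups, and was not called (0.22 ± 0.10, limma adjusted p = 0.0776). Ndc80 (2.23, 1.70 and 1.79 FPKM with TCPOBOP, 1.70, 1.89 and 2.15 FPKM with corn oil) and Smc4 (9.15, 5.34 and 8.46 FPKM with TCPOBOP, 7.04, 6.69 and 8.91 FPKM with corn oil) changed least, at -0.01 and 0.00.

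The newborn count changed with single libraries. It was 6 without corn oil replicate 1, 9 without corn oil replicate 2, 33 without corn oil replicate 3 and 9 without TCPOBOP replicate 2; without the libraries with acinar transcripts it was 6 (Cdc20, Birc5, Spc24, Pbk, Ect2 and Nek2) and 0 were lower. After rescaling by median of ratios, 11 were higher and 2 lower, and the share of calls of all genes that were higher was 52.0%, against 68.6% before. Among the other 54 mitotic genes 12 rose and 1 fell: Zwint (0.75 ± 0.06) and Tubb5 (0.46 ± 0.09), a tubulin gene, rose, and Hjurp fell (-0.80 ± 0.08). Of the 24 regulators 6 rose and 2 fell, with E2f6 at 0.41 ± 0.06, Foxm1 at 0.28 ± 0.10 and Mybl2 at -0.47 ± 0.11. Erythroid markers rose in 9 of 16 cases (76.9 to 95.3 FPKM in sum with TCPOBOP, against 45.6 to 82.1 FPKM with corn oil), Kupffer cell markers in 4 of 10 (688 to 816 FPKM, against 569 to 602 FPKM), and stellate markers fell in 6 of 10 (215 to 268 FPKM, against 320 to 348 FPKM). Erythroid precursors and other blood cells of newborn liver also divide, and the part of these shifts in the members' levels was not tested. The closing number of the read file name also differs between these TCPOBOP and corn oil libraries, and it cannot be told apart from the treatment.

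In newborn hCAR-TG liver, 1 member rose with CITCO, Nek2, and 0 fell, where 8.27% of all tested genes were called higher and 8.82% lower; 4 members were at an unadjusted p under 0.05. Nek2 had 7.45, 7.11 and 7.48 FPKM with CITCO, against 5.25, 5.20 and 6.49 FPKM with corn oil. The groups did not overlap (0.33 ± 0.10, limma adjusted p = 0.03), but the call was lost without any 1 of the 3 CITCO libraries. The largest log2(FPKM + 1) estimates were in Smc4 (0.54 ± 0.31), Cenpe (0.35 ± 0.15) and Mki67 (0.33 ± 0.25), none of them called. Smc4 had 10.9, 11.4 and 10.05 FPKM with CITCO, Cenpe had 1.94, 1.97 and 1.79 FPKM with CITCO against 1.85, 1.68 and 0.535 FPKM with corn oil, and Mki67 had 14.8, 15.1 and 13.3 FPKM with CITCO against 15.6, 15.8 and 5.49 FPKM with corn oil. In all 3 genes corn oil replicate 3, the library that stood apart, was the lowest of the 6. Of the 3 corn oil libraries it alone shares its closing read file number with the CITCO libraries. A fit with that number as a factor therefore rests on this 1 corn oil library. With the closing number of the read file name as a factor, 16 members were called higher, Smc4, Cenpe and Mki67 among them; among libraries with the same number (3 CITCO libraries against 1 with corn oil) 34 members were higher, with a median change of 0.04. The smallest changes were in Spc24 (6.41, 6.43 and 5.47 FPKM with CITCO, 5.03, 5.75 and 7.65 FPKM with corn oil) and Cdk1 (8.93, 9.07 and 8.96 FPKM with CITCO, 9.21, 9.0 and 8.71 FPKM with corn oil). Among the other 54 mitotic genes 1 rose, Zwint (0.28 ± 0.06), and 2 fell, Hjurp (-0.43 ± 0.08) and Psrc1 (-0.32 ± 0.09). Neutrophil and myeloid markers fell in 5 of 12 cases (568 to 1093 FPKM in sum with CITCO, against 1131 to 1490 FPKM with corn oil), and their part was not tested.

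The test of the difference between the newborn responses placed CITCO in hCAR-TG mice under TCPOBOP in wild type mice for 5 members and above it for 0, where 22.2% of all tested genes were called lower and 11.5% higher (34.1% of all calls were higher, 45.3% after rescaling). These were Cdc20 (-1.05 ± 0.24), Birc5 (-0.78 ± 0.23), Cdca3 (-0.71 ± 0.21), Cdca5 (-0.53 ± 0.15) and Nek2 (-0.47 ± 0.14). In newborn hCAR-TG liver Cdc20 had 13.2, 13.7 and 13.7 FPKM with CITCO and Birc5 had 19.5, 22.2 and 20.7 FPKM with CITCO, against 22.0, 20.6 and 25.9 FPKM with corn oil. Their hCAR-TG groups overlapped. The smallest differences were in Ccnf (0.06) and Cenpa (0.00). The count was 28 without wild type corn oil replicate 3, 9 without hCAR-TG corn oil replicate 1, 10 without hCAR-TG corn oil replicate 3, 8 without TCPOBOP replicate 3 and 1 without the libraries with acinar transcripts.

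The TCPOBOP response was larger at day 60 than at day 5 in 56 members and smaller in 1, where 13.7% of all tested genes were called higher and 9.76% lower. The median difference was 1.76 over the members and 0.03 over all tested genes. Cdc20 (4.07 ± 0.24), Ube2c (3.70 ± 0.21) and Cdca3 (3.46 ± 0.21) differed most on log2(FPKM + 1). Ccnf differed by 0.00 ± 0.21, and Pttg1 was the member with the smaller adult response (-0.42 ± 0.13, limma adjusted p = 0.021), a call lost without wild type corn oil replicate 2 or TCPOBOP replicate 2 at day 5, without corn oil replicate 1 or TCPOBOP replicate 3 at day 60, and without the libraries with acinar transcripts. For CITCO in hCAR-TG mice, 1 member had a larger response at day 60, Cdc20 (0.92 ± 0.24, limma adjusted p = 0.0197), and 0 had a smaller one, where 5.37% of all tested genes were called higher and 4.62% lower. Birc5 (0.60 ± 0.23) and Top2a (0.60 ± 0.22) came next and were not called, and Cenpk (-0.01) and Bub1 (0.00) differed least. The call for Cdc20 was lost without adult CITCO replicate 2 or without the libraries with acinar transcripts, and 2 members were called without newborn corn oil replicate 3. With a pseudocount of 0.1, 22 members had a larger response at day 60. Fitted with the closing read file number, newborn corn oil levels rest on replicate 3, the library that stood apart. Adult CITCO levels then rest on replicate 1. With the closing number of the read file name as a factor, 3 had a larger response at day 60 (Cdc20, Plk1 and Nek2) and 9 a smaller one.

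Between day 60 and day 5 with corn oil, 56 members were lower and 1 was higher in adult liver of both genotypes. In wild type mice 44.9% of all tested genes were called lower and 25.2% higher, and in hCAR-TG mice 47.3% and 24.3%. Kif15 and Espl1 passed the expression filter only through newborn libraries, and the other 56 members also reached 1 FPKM in at least 3 adult ligand libraries. The median over the members of each gene's adult group mean, as a percent of its newborn group mean, was 3.76% in wild type and 2.85% in hCAR-TG liver. Ube2c had 0.378, 0.353 and 0.155 FPKM at day 60, against 13.5, 15.2 and 23.2 FPKM at day 5 in wild type liver. In hCAR-TG liver it had 0.396, 0.302 and 0.263 FPKM at day 60, against 20.7, 25.1 and 29.2 FPKM at day 5. On log2(FPKM + 1) it changed most in both genotypes, by -3.79 ± 0.15 in wild type and -4.29 ± 0.15 in hCAR-TG liver. As a ratio of group means Ccnb1 was further below its newborn level (0.0128 in wild type and 0.00608 in hCAR-TG) than Ube2c (0.0170 in wild type and 0.0128 in hCAR-TG). Birc5 (-3.64 in wild type, -3.97 in hCAR-TG), Ccna2 (-3.36 in wild type) and Ccnb2 (-3.79 in hCAR-TG) followed. Ccna2 had 0.198, 0.332 and 0.258 FPKM at day 60, against 9.69, 11.3 and 15.5 FPKM at day 5 in wild type liver. Ccnb2 had 0.121, 0.268 and 0.114 FPKM at day 60, against 14.5, 13.1 and 18.4 FPKM at day 5 in hCAR-TG liver.

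Securin stood against the rest with age. Pttg1 had 26.7, 24.5 and 23.6 FPKM at day 60, against 16.5, 14.5 and 15.8 FPKM at day 5 in wild type liver (0.65 ± 0.09, limma adjusted p = 1.92e-06). In hCAR-TG liver it had 22.6, 24.5 and 22.4 FPKM at day 60, against 13.9, 15.9 and 19.6 FPKM at day 5 (0.48 ± 0.09, limma adjusted p = 7.44e-05). Adult libraries were higher than all newborn ones in both genotypes. Ccnf was not called with age (0.11 ± 0.15 in wild type, -0.30 ± 0.15 in hCAR-TG), with 4.50, 5.29 and 3.25 FPKM at day 60 and 5.05, 5.43 and 6.03 FPKM at day 5 in hCAR-TG liver. The smallest fall called in wild type liver was that of Spc24 (-0.44 ± 0.16, limma adjusted p = 0.0209). All 54 other tested mitotic genes were lower at day 60 in both genotypes, for example Spag5 (-1.57 ± 0.07 in wild type). Newborn libraries alone can pass a gene through the filter of 1 FPKM in 3 libraries. This count is therefore no separate support for the fall of the members. Erythroid markers were lower in 15 of 16 cases in wild type and 16 of 16 in hCAR-TG liver (46.8 to 49.7 FPKM in sum at day 60, against 165 to 184 FPKM at day 5 in hCAR-TG; 38.0 to 58.8 FPKM, against 45.6 to 82.1 FPKM in wild type), and neutrophil and myeloid markers in 11 and 12 of 12. Kupffer cell markers were lower in 10 of 10 in both. What part of the newborn levels came from such cells was not tested. The median change of all genes in the hCAR-TG age comparison was -0.06 after rescaling by median of ratios, against -0.17 before, and the 57 members called in each genotype were called after rescaling too.

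Against newborn wild type corn oil liver, adult wild type TCPOBOP liver reached a similar level of the list, with members called in both directions. The median ratio of group means was 1.08 over the members. Called higher were 20 members and lower 10, where 30.6% of all tested genes were called higher and 38.6% lower. The share of members called higher was thus near that of all genes, and the share called lower was under it. Cdc20 (32.7 to 48.7 FPKM in adult TCPOBOP liver, against 8.72 to 14.5 FPKM in newborn corn oil liver), Ect2 (9.85 to 13.5 FPKM, against 2.54 to 4.63 FPKM) and Spc24 (15.7, 18.8 and 14.8 FPKM, against 3.60, 4.96 and 6.80 FPKM) exceeded the newborn levels most, by 1.79 ± 0.17, 1.56 ± 0.15 and 1.53 ± 0.16 (limma adjusted p = 1.12e-08, 1.5e-08 and 5.38e-08). Their groups did not overlap. Hmmr (1.18 ± 0.17), Cdca3 (1.09 ± 0.15), Nek2 (1.0 ± 0.10) and Kif20a (0.94 ± 0.14) followed, together with Ccnb1 (0.76 ± 0.15), Plk1 (0.58 ± 0.13) and Pttg1 (0.50 ± 0.09). Spc25 had 10.8, 10.5 and 9.10 FPKM in adult TCPOBOP liver, against 19.7, 21.1 and 24.6 FPKM in newborn corn oil liver (-1.04 ± 0.12, limma adjusted p = 1.65e-07). Top2a had 8.28, 7.45 and 5.96 FPKM in adult TCPOBOP liver, against 9.22, 11.0 and 13.9 FPKM in newborn corn oil liver (-0.58 ± 0.16). Both were lower in every adult library, as was Aurkb (-0.52 ± 0.09), and Kif15 (-0.48 ± 0.12), Nusap1 (-0.41 ± 0.13), Kif23 (-0.35 ± 0.10), Ncapd2 (-0.33 ± 0.12), Ncaph (-0.31 ± 0.10), Ccna2 (-0.29 ± 0.12) and Melk (-0.25 ± 0.10) were called lower too.

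Within complexes the calls were not alike, and differences between members were not tested. In the Ndc80 complex, Spc24 was above and Spc25 below the newborn level, and Ndc80 was not called (0.05 ± 0.15). Cyclin B genes were above (Ccnb1, and Ccnb2 with 0.49 ± 0.15), cyclin A2 below, and Cdk1 not called (0.09 ± 0.10). Within the passenger complex Aurkb was below and Birc5 not called (0.12 ± 0.16). Kif4 (2.14, 2.33 and 1.66 FPKM in adult TCPOBOP liver, 1.68, 1.91 and 2.37 FPKM in newborn corn oil liver) and Cdca5 (2.85, 3.13 and 2.15 FPKM in adult TCPOBOP liver, 1.99, 2.79 and 3.30 FPKM in newborn corn oil liver) differed least, at 0.03 and 0.01. With 1 library left out at a time the counts ran from 15 to 27 higher and 5 to 13 lower, the lower count falling to 5 without newborn corn oil replicate 3 and to 6 without adult TCPOBOP replicate 3. With the closing number of the read file name as a factor, 9 were higher and 9 lower. Erythroid markers were lower in 15 of 16, Kupffer cell markers in 10 of 10 and neutrophil and myeloid markers in 11 of 12 cases in the adult group, and their part was not tested.

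**Figure D5:**
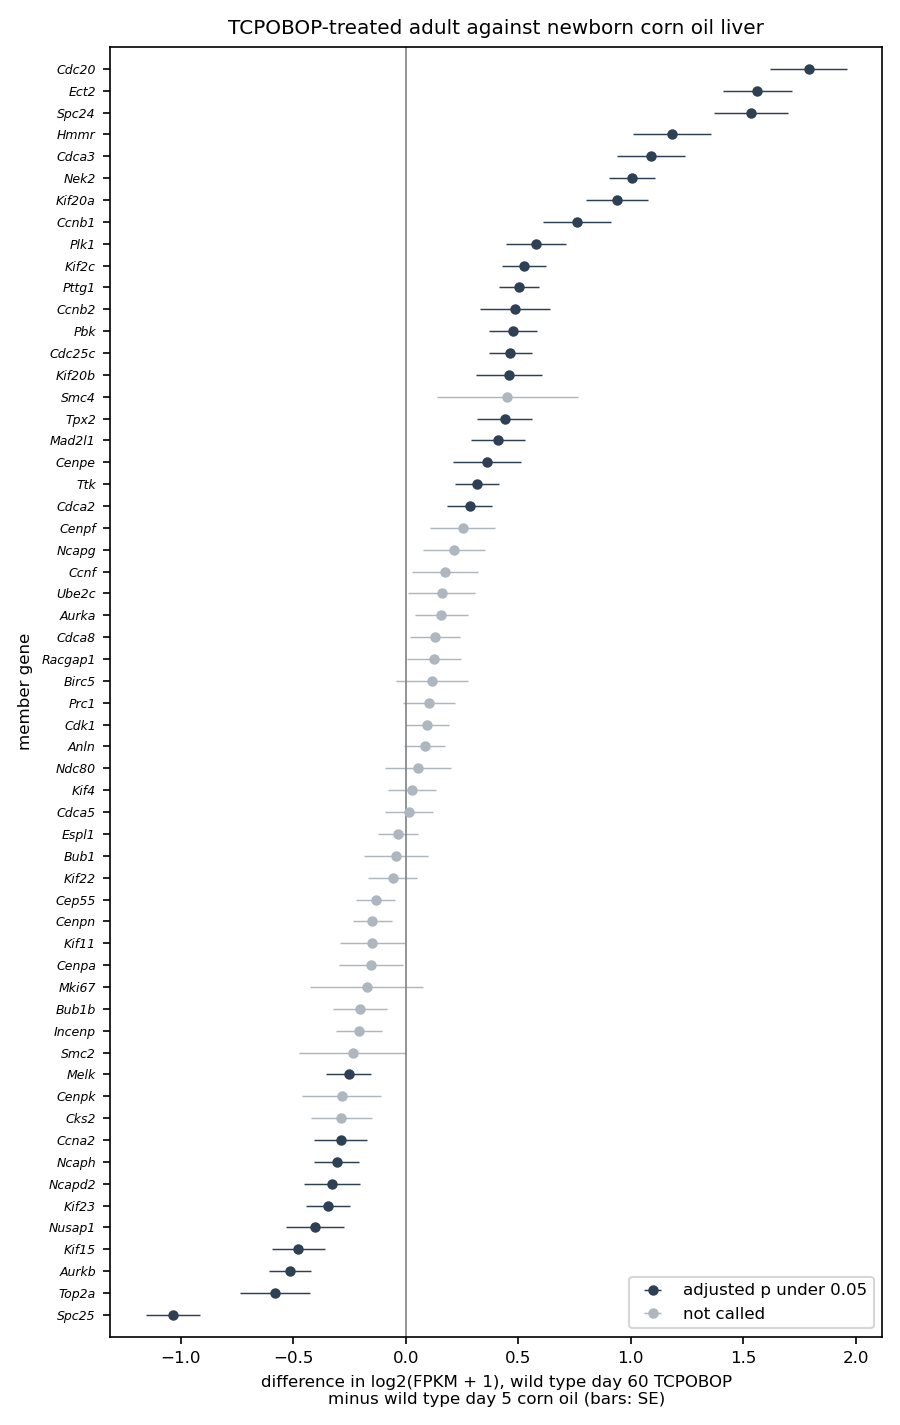
Difference in log2(FPKM + 1) between adult wild type liver given TCPOBOP and newborn wild type liver given corn oil (x axis; point, limma estimate; bar, SE) for each member (y axis); dark points have an adjusted p under 0.05. Dark points lie on both sides of 0, 20 to the right (up to 1.79 for Cdc20) and 10 to the left (down to -1.04 for Spc25).

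Between the genotypes with corn oil, members differed little. At day 60, 0 members were called (limma; 1 at an unadjusted p under 0.05), where 3.05% of all tested genes were called higher in hCAR-TG liver and 1.85% lower. Spc25 had the largest log2(FPKM + 1) estimate, with 0.931, 1.27 and 1.33 FPKM in hCAR-TG liver and 2.44, 1.65 and 1.53 FPKM in wild type liver (-0.39 ± 0.12, limma adjusted p = 0.0677); it was called lower after rescaling, with a pseudocount of 0.1 and without wild type replicate 3. Ccnf (-0.26 ± 0.15) and Ect2 (0.11 ± 0.15) came next, and Cenpf (0.0230, 0.0210 and 0.0248 FPKM in hCAR-TG, 0.0267, 0.0266 and 0.00879 FPKM in wild type) and Kif15 (0.0570, 0.0417 and 0.0206 FPKM in wild type) differed least. At day 5, 3 members were higher in hCAR-TG liver and 0 lower, where 8.29% of all tested genes were called higher and 2.27% lower (78.5% of all calls were higher, 64.9% after rescaling). Ube2c (0.53 ± 0.15) had 20.7, 25.1 and 29.2 FPKM in hCAR-TG and 13.5, 15.2 and 23.2 FPKM in wild type liver. Incenp (0.38 ± 0.10) had 7.79, 8.33 and 7.03 FPKM in hCAR-TG and 4.93, 5.49 and 6.78 FPKM in wild type liver. Espl1 (0.31 ± 0.09) had 1.62, 1.76 and 1.92 FPKM in hCAR-TG and 0.996, 1.20 and 1.51 FPKM in wild type liver. Ube2c overlapped between the genotypes, and Incenp and Espl1 did not.

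The newborn count ran from 0 to 16 with 1 library left out at a time. It was 0 without wild type replicate 1 or 2, without hCAR-TG replicate 2 or without the libraries with acinar transcripts, 16 without wild type replicate 3 and 9 without hCAR-TG replicate 3. Mki67 (0.37 ± 0.25) was next in size, not called, and Nek2 (0.01) and Ndc80 (0.00) differed least. Among the other mitotic genes 6 of 54 were higher in hCAR-TG newborns and 0 lower, for example Cdc25b (0.85 ± 0.12). Erythroid markers were higher in 16 of 16 cases (165 to 184 FPKM in sum in hCAR-TG, against 45.6 to 82.1 FPKM in wild type) and neutrophil and myeloid markers in 11 of 12 (1131 to 1490 FPKM, against 304 to 786 FPKM), and their part in the 3 member calls was not tested. The closing number of the read file name cannot be told apart from genotype here.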

How the data were processed

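Poly-A RNA of mouse liver was sequenced in 24 libraries, 3 in each of 8 groups, made with a stranded kit, per the labels' protocols. The authors deposited 1 table of FPKM values with confidence bounds per library, on mm10 per the submitters' processing notes; the aligner and the counting program are not given in the sources used here. Of 24885 entries per table, 24339 genes remained after summing repeated symbols and leaving out 5 genes with failed estimates. Changes were tested on log2(FPKM + 1) with limma 3.58.1 in R 4.3.3 (trended, robust), in 1 fit of all 8 groups (16 residual degrees of freedom), over 12282 genes with at least 1 FPKM in 3 libraries, with Benjamini-Hochberg adjustment over all of them and a threshold of 0.05. The script was tested on simulated data. Fold changes on this scale understate those of low genes. Fragments per value were estimated from the deposited confidence bounds and are approximate. The members and all gene lists were chosen with earlier results of these data known. Named with values are 16 members that represent the roles, the 3 largest and 2 smallest changes of each comparison, members called against the majority, the extremes of each role, and up to 4 called genes of other lists; Foxm1, Mybl2, Hjurp, Cdkn1a and the regulators that fell were chosen after their values were seen. Tried as alternatives were no filter, a pseudocount of 0.1, FPKM rescaled by median of ratios, a replicate block, the compared libraries alone, the closing number of the read file names as a factor, each library left out, and, chosen after seeing the data, the 3 libraries with acinar transcripts left out. In no comparison did every pair of same-numbered replicates have a correlation of deviations over 0.1 (range -0.18 to 0.26), so the numbers were not taken to pair the samples.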

Additional observations from a re-analysis of the deposited data

Results flagged for a closer look

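Differences between the responses of different groups, tested directly in the limma model, were found in 4 contrasts. The response to TCPOBOP in wild type liver was larger at day 60 than at day 5 for 56 of the 58 members and smaller for 1, Pttg1. The shares over all tested genes were 13.7% larger and 9.76% smaller. The response to CITCO in hCAR-TG liver was larger at day 60 than at day 5 for 1 member, Cdc20. That is a smaller share than the 5.37% of all tested genes, and the call was lost under some alternatives. The response to CITCO in hCAR-TG liver was smaller than that to TCPOBOP in wild type liver for 55 members at day 60 and for 5 members at day 5 (Cdc20, Birc5, Cdca3, Cdca5 and Nek2). It was smaller for 24.1% of all tested genes at day 60 and 22.2% at day 5. Members were thus called less often than genes in general at day 5, and that count changed under the alternatives below. Each pair of responses differs in receptor and ligand together, or in age, and these cannot be told apart from other differences between the libraries.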

How the results depend on the processing

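The 56 members called higher with TCPOBOP at day 60 numbered 56 under every alternative run, and 0 were lower except after rescaling by median of ratios (1, Pttg1). With each replicate left out in turn, members called higher and lower ranged from 6 to 33 and 0 to 2 for TCPOBOP at day 5, from 56 to 56 and 0 to 0 for TCPOBOP at day 60, from 0 to 2 and 0 to 0 for CITCO at day 5, and from 2 to 5 and 0 to 1 for CITCO at day 60. They ranged from 1 to 1 and 55 to 56 for age in wild type, 1 to 1 and 56 to 57 for age in hCAR-TG, 0 to 16 and 0 to 0 for genotype at day 5, and 0 to 0 and 0 to 1 for genotype at day 60. For the differences between responses they ranged from 55 to 56 and 0 to 1 (TCPOBOP, age), 0 to 2 and 0 to 1 (CITCO, age), 0 to 2 and 4 to 28 (CITCO against TCPOBOP, day 5) and 0 to 0 and 55 to 56 (day 60), and from 15 to 27 and 5 to 13 for adult TCPOBOP against newborn corn oil.

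After rescaling, TCPOBOP at day 5 gave 2 lower, CITCO at day 60 8 higher and 1 lower, genotype at day 60 1 lower, the CITCO response by age 3 higher, and CITCO against TCPOBOP at day 5 1 higher. With a pseudocount of 0.1, TCPOBOP at day 5 gave 9 higher and 0 lower, CITCO at day 5 0 higher, CITCO at day 60 31 higher and 1 lower, genotype 0 higher at day 5 and 1 lower at day 60, the CITCO response by age 22 higher, and CITCO against TCPOBOP at day 5 3 lower. Without the filter CITCO at day 60 gave 3 higher. With the compared libraries alone, TCPOBOP at day 5 gave 10 higher, CITCO 0 higher at day 5 and 22 at day 60, genotype at day 5 0 higher, the CITCO response by age 6 higher and CITCO against TCPOBOP at day 5 1 higher. With the closing number of the read file names as a factor, CITCO gave 16 higher at day 5 and 1 at day 60, the CITCO response by age 3 higher and 9 lower, and adult TCPOBOP against newborn corn oil 9 higher; in the CITCO response by age Mki67 (-0.85) and Ndc80 (-0.52) then reversed, with limma adjusted p of 0.0211 and 0.0198. In that fit, CITCO at day 5 rests on corn oil replicate 3, the library that stood apart. CITCO at day 60 rests on CITCO replicate 1, and the CITCO response by age on both. Without the libraries with acinar transcripts, TCPOBOP at day 5 gave 6 higher and 0 lower, CITCO at day 5 0 higher, genotype at day 5 0 higher, the TCPOBOP response by age 0 lower, the CITCO response by age 0 higher and CITCO against TCPOBOP at day 5 1 lower. The causes were not tested.

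The replicate block gave 16 higher and 1 lower for TCPOBOP at day 5, 56 higher for TCPOBOP at day 60, 1 higher for CITCO at day 5 and 4 higher for CITCO at day 60, so the pairing of replicate numbers moved no count by more than 1.5 times. The closing number could not be fitted apart from the groups for TCPOBOP at day 5, age in hCAR-TG, genotype at day 5, the TCPOBOP response by age and CITCO against TCPOBOP at day 5. Adult corn oil levels rest on a median of 15 to 18 fragments per value, which limits the CITCO comparison at day 60.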
